A study of Mus musculus with 3 samples.

Results

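A set of heat shock chaperone genes, 8 of the 27734 genes that all 3 single-cell libraries list, were followed through early mouse thymocytes. The members were taken by symbol. Hspa1a and Hspa1b (the stress-inducible HSP70s), Hspb1 (the small chaperone HSP27), Dnajb1 (a J-domain co-chaperone of HSP70), Hsph1 (HSP110, which exchanges the nucleotide on HSP70) and Hsp90aa1 (HSP90 alpha) were treated as the 6 inducible members. Hspa8 (the constitutive HSC70) and Hsp90ab1 (HSP90 beta) were treated as the 2 constitutive members. All 8 were listed and detected.

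Each library pooled the thymi of 4 C57BL/6 mice, labelled week 6, and no treatment was named. The first run held DN thymocytes (CD4- CD8- double-negative) with gammadelta T cells, named DN + gammadelta. The second run held DN1 + DN2 cells, sorted against TCRγδ. The third run, DN1 + DN2 + DN3 + gammadelta, mixed separately sorted DN1 + DN2 cells, DN3 cells and TCRγδ+ cells. Each sort was made once, so between runs there is no test, and the sort, the mice and the depth cannot be told apart. The same holds for the reference of the third run, which lists more genes than the other 2. It also holds for kit chemistry and counting software. The authors name 2 kit versions and 2 Cell Ranger versions but do not say which run used which.

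Heat shock proteins bind unfolded or partly folded proteins and keep them from aggregating. HSP70 works in cycles of ATP binding and hydrolysis that J-domain proteins start and HSP110-type factors reset, and HSP90 takes over late folding steps of kinases and receptors. Under heat or other stress, heat shock factor 1 (HSF1) forms trimers on heat shock elements, built from inverted repeats of the letters GAA, and transcription of the inducible genes starts within minutes. Tissue dissociation and sorting are known to induce the same genes in single-cell preparations. The constitutive members are transcribed in nearly every growing cell.

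The first and second run list 28692 genes and the third 32285. A cell was used if it had between 500 and 5000 genes and no more than 7% of its counts from mitochondrial genes. In run order this gave 5516, 8852 and 7511 cells, with medians of 5989.5, 4844 and 8507 UMIs (unique molecular identifiers, 1 per captured transcript). The first and second run shared 72 cell barcodes, the first and the third 1, and the second and the third 0. The reason for this difference was not tested. The first and the third run held no UMI of the Y-linked genes Eif2s3y and Ddx3y, while the second held 73.6 and 65.4 CPM (counts per 1e6 UMIs). The X-inactivation transcript Xist was at 1469, 0.0574 and 1707 CPM in run order. The libraries thus differed in their sex-linked transcripts, and this difference moves with every comparison of the second run below.

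Cells were assigned to stages by gates on UMIs in which no member takes part. DN3-like cells carried Ptcra with Il2ra, Rag1 or Notch3, and no UMI of Kit or Cpa3. DN2b-like cells carried Kit or Cpa3 with Ptcra or Rag1. DN2a-like cells carried Il2ra with Kit or Cpa3 and neither Ptcra nor Rag1. The second run was sorted as CD44+ DN1 + DN2 cells, so its 913 DN3-like cells do not come from a DN3 sort. That gate thus holds differently sorted cells in the 3 runs. DN1-like progenitors carried Kit, Cd34 or Flt3, and no Il2ra, Ptcra or Rag1. The remaining DN1-like cells carried Il7r or Cd44 (DN1-like Il7r). DN4-like cells, nearly all in the first run, carried Cd8a or Cd8b1. The Trdc gate took cells with at least 3 Trdc UMIs, no Ptcra and at least 1 gene of a marker list that includes Sox13 and Id3, and the NK-receptor gate took cells with at least 2 of 8 genes such as Nkg7 and Klrd1. Sox13 was at 152, 171 and 353 CPM in resting cells of the Trdc gate, against 9.09 to 21.4 CPM in resting DN3-like cells. The NK-receptor gate carried the αβ receptor gene Trac at 1315 and 488 CPM in the second and the third run, so it is named here only by its rule. Cells with at least 4 UMIs of 6 cycle genes are called cycling and those with at most 1 resting.

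The promoters of the HSP70 pair are shown first, because the comparisons between runs turn on these 2 genes. Of the 8 members, 5 matched the RefSeq promoter table (GRCm38.p6), which covers 250 bases before to 50 after each start. Hspa8, Hsp90aa1 and Hsp90ab1 are named only. Hspa1a lies on the minus strand of chromosome 17 at 34969190 to 34972156 and Hspa1b beside it at 34956436 to 34959238 (GRCm38). Their promoter windows were identical at 296 of 300 positions. The 100 bases from -160 to -61 before the start are printed below, at chr17:34972217-34972316, chr17:34959299-34959398 and, for Hspb1 on the plus strand, chr5:135887759-135887858. For Hsph1 (minus strand), which has 2 listed starts, the 100 bases just before the first listed one are given, at chr5:149636337-149636436. The annotated gene reaches to 149636376, so part of this stretch lies inside it. Capitals mark GAANNTTC or TTCNNGAA, the 2 orders of an inverted GAA repeat.
Hspa1a: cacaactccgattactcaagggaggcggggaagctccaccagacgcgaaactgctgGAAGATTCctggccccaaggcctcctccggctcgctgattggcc
Hspa1b: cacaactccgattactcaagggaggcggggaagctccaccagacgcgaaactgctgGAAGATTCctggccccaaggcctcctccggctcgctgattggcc
Hspb1: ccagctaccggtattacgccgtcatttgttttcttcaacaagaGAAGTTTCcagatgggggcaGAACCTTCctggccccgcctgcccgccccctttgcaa
Hsph1: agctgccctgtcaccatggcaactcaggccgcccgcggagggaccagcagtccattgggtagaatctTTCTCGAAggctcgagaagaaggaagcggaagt

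The HSP70 pair shared 1 GAANNTTC at -104, and Hspb1 held 2, at -117 and -97. Both motifs read the same on either strand. Counted from its first listed start, Hsph1 held TTCNNGAA at -33, and a 3-unit run of the repeat began 36 bases past that start. From its other listed start the same motifs lay at -54 and 15. Neither of the 2 Dnajb1 windows held either order. Among 32851 promoters outside chromosome 18, 7.86% held GAANNTTC, 8.52% held TTCNNGAA and 0.603% held the 3-unit run. These matches describe the letters of this window only.

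In resting cells the stress-inducible HSP70 genes stood far higher in the DN1 + DN2 library than in the other 2, in every gate. Hspa1a was at 554 to 853 CPM over the 7 gates of the second run. Over the DN2a, DN2b, DN3 and Trdc gates of the first run it was at 21.8 to 78.9 CPM, with 0 UMIs in 49 resting DN4-like cells, and over the 6 gates of the third run at 0.438 to 6.10 CPM. Apart from the DN4-like cells, the ranges of the 3 runs did not overlap. Constitutive Hspa8 was at 1517 to 1955 CPM in the second run and, over 5 gates, 1426 to 2224 CPM in the first, where the ranges overlapped, and at 996 to 1172 CPM in the third.

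**Figure D1:**
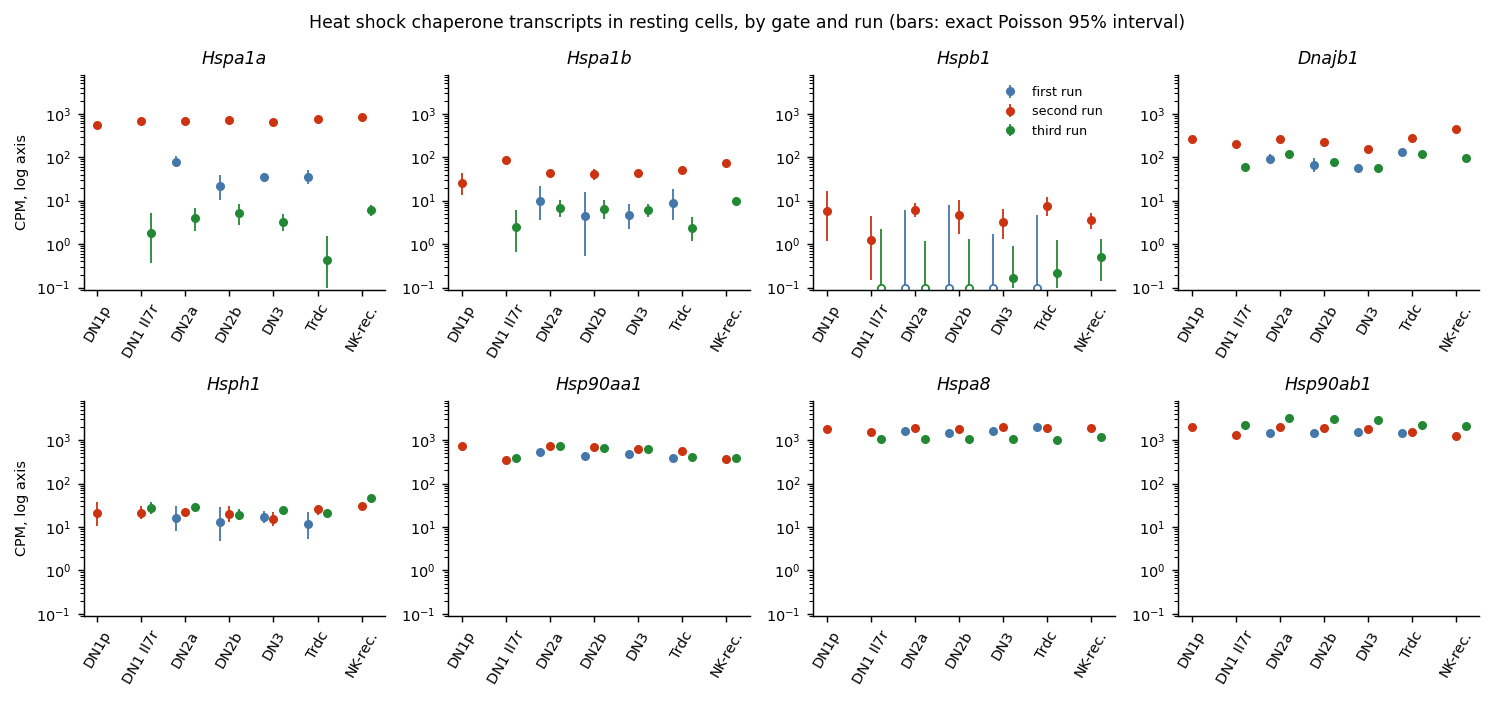
Each panel plots 1 gene as CPM of summed UMIs (log axis) in resting cells of each gate, with a point per run and its exact Poisson 95% interval, and open points at the lower edge for 0 UMIs. Hspa1a in the second run lies between 554 and 853 CPM in every gate, above all points of the other 2 runs, while Hspa8 and Hsp90ab1 stay within 996 to 3233 CPM.

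In resting DN3-like cells, Hspa1a was at 34.9 CPM (exact Poisson 95% interval 27.5 to 43.8) from 75 UMIs of the first run. The second gave 640 CPM (607 to 674) from 1407 UMIs, and the third 3.27 CPM (1.998 to 5.05) from 20 UMIs. The intervals cover counting error only. Second over first, the ratio was 18.3-fold (14.5 to 23.4). With 1 CPM added on both sides, only 0.0938% of the genes with a mean of at least 20 CPM had a larger one. Without that addition, the Hspa1a ratio was 8.53-fold (6.41 to 11.6) in DN2a-like cells, 32.2-fold (17.4 to 67.4) in DN2b-like cells and 20.9-fold (14.4 to 31.5) in the Trdc gate. For the second over the third run, Hspa1a differed by 196-fold (126 to 321) in DN3-like cells. With 1 CPM added on both sides, no gene of at least 20 CPM had a larger ratio. Hspa1a, at 3.27 CPM in the third run, reached that minimum only through the second, so this rank is no support. Without the added 1 CPM, Eif2s3y and Ddx3y, at 0 UMIs in the third run, have no finite ratio.

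Hspa1b too stood highest in the second run. In resting DN3-like cells Hspa1b lay below Hspa1a in the first and the second run and above it in the third. There Hspa1b was at 4.66, 42.3 and 6.05 CPM in run order, 9.08-fold (4.72 to 19.6) higher in the second run than in the first and 6.99-fold (4.73 to 10.53) higher than in the third. Over the 4 gates the second-over-first ratio lay between 4.42-fold and 9.33-fold. Hspa1a gave 86.0% (83.9 to 88.0) of the summed Hspa1a and Hspa1b UMIs of the first run and 93.2% (92.9 to 93.4) of those of the second. The third run had 536 UMIs of each gene, and in its resting DN3-like cells Hspa1a gave 35.1% (22.9 to 48.9). The 2 transcripts are identical at 2560 positions of an alignment, 91.3% of the shorter one. Over their last 300 bases they are identical at 170, beside 163 for Hspa1a and Hspa8. Whether reads were split between the pair or dropped in the counting was not tested.

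Dnajb1, the co-chaperone, also stood highest in the second run. It was at 57.3, 153 and 55.9 CPM in resting DN3-like cells of the 3 runs, and its second-over-first ratio lay between 2.15-fold in the Trdc gate and 3.27-fold in DN2b-like cells. In DN3-like cells the intervals of the first and the third run overlapped, at 47.6 to 68.4 and 50.2 to 62.2 CPM. With gates set on cells thinned to 2000 UMIs, the ratio in DN2b-like cells was 1.89-fold.

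In resting DN3-like cells Hsph1 and Hsp90aa1 differed less between runs, while Hspb1 was too low for a firm ratio. Hsph1 was at 17.2, 15.5 and 24.9 CPM and Hsp90aa1 at 469, 608 and 631 CPM, so Hsp90aa1 was 1.30-fold (1.19 to 1.41) higher in the second run than in the first. Hspb1 gave 0, 7 and 1 UMIs there. Over all cells kept it gave 3, 223 and 56 UMIs in run order, that is 0.0762, 4.27 and 0.720 CPM. Its level was thus highest in the second run, at few counts.

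Of the 8 members, Hspa1a, Hspa1b and Dnajb1 were more than 2-fold higher in the second run than in the first in resting DN3-like cells, beside 0.976% of the 5328 genes with a mean of at least 20 CPM. Hsp90aa1, Hspa8 and Hsp90ab1 were not, nor was Hsph1, with a ratio of 0.897 (0.546 to 1.47) and a mean under that minimum. For Hspb1 no ratio is given. Hspa1b, at 4.66 CPM in the first run, reached the minimum only through the run where it was high, so its count among these genes is no support. Hspa1a, Hspa1b and Dnajb1 were past 2-fold as well in DN2a-like cells (background 1.63%), DN2b-like cells (1.58%) and the Trdc gate (2.49%). There too Hspa1b, at 9.86, 4.35 and 8.88 CPM in the first run, reached the minimum only through the second, so its count is no support. In the Trdc gate Hsph1 was also at 2.21-fold (1.09 to 5.09), from 9 UMIs in the first run. Against the third run Hspa1a, Hspa1b and Dnajb1 were past 2-fold in all 4 gates, where both HSP70 genes reached the minimum only through the second run. The background upward there was 5.79% in DN2a-like, 7.37% in DN2b-like and 5.82% in DN3-like cells and 6.98% in the Trdc gate.

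**Figure D2:**
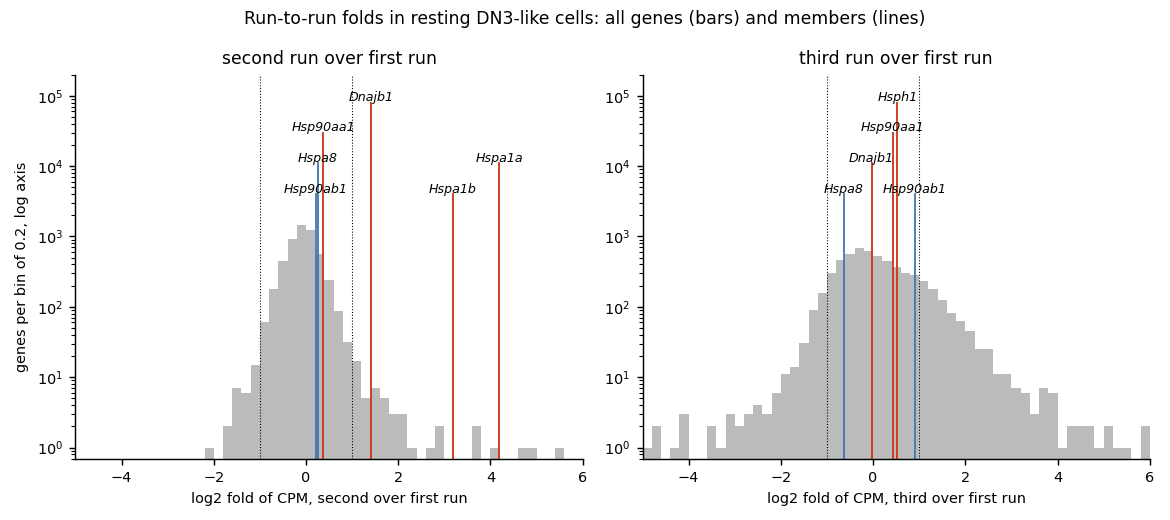
The bars count genes with a mean of at least 20 CPM by their log2 fold of CPM between runs in resting DN3-like cells (counts on a log axis), and lines mark the members (red inducible, blue constitutive), with dotted lines at 2-fold. Hspa1a lies 18.3-fold up for second over first, outside the bulk of the genes. Hspa1b lies 9.08-fold up, but it reached the minimum only through the second run, so its place is no support. No member drawn for the third over the first run lies past 2-fold (Hspa1a, at 0.0936, had a mean under 20 CPM and is not drawn).

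The constitutive members differed between runs too, though by less than 2-fold for second over first in all 4 gates. Hspa8 was at 1636, 1955 and 1054 CPM in resting DN3-like cells, and Hsp90ab1 at 1521, 1768 and 2846 CPM. Second over first they were 1.20-fold (1.14 to 1.25) and 1.16-fold (1.11 to 1.22) higher. Hspa8 was lowest and Hsp90ab1 highest in the third run in all 4 gates. Hspa1a was lower in the third run than in the first in all 4 gates. The ratio was 0.0936 (0.0541 to 0.155) in DN3-like cells, 0.0494 (0.0239 to 0.0945) in DN2a-like cells, 0.234 (0.0968 to 0.590) in DN2b-like cells and 0.0123 (0.00142 to 0.0489) in the Trdc gate, the last from 2 UMIs in the third run. Its mean was at least 20 CPM in DN2a-like cells alone. Among members over that minimum, none passed 2-fold in DN3-like cells (background in either direction 20.7%). Hsp90ab1 passed upward in DN2a-like cells (background upward 14.7%, either direction 23.7%) and in DN2b-like cells (14.3% and 23.1%). Hspa8 passed downward in the Trdc gate (background downward 10.1%, either direction 27.9%). These shares are far above those between the second and the first run.

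Genes outside the 8 members were set beside them. Of a list of 60 further chaperone and proteostasis genes, 47 had a mean of at least 20 CPM in resting DN3-like cells, and 0 were past 2-fold in either direction for second over first. Their median log2 ratio was -0.0089, beside -0.057 for all genes. Of 18 immediate early genes, which growth signals and cell handling switch on within minutes, 13 could be compared and 8 were past 2-fold upward, among them Fos, Jun and Dusp1, with a median log2 ratio of 1.59. Between the third and the first run, 8 of 14 were past 2-fold upward as well, with a median of 1.89, beside 14.8% of all genes. Btg2 and Socs3 had log2 ratios below 0 in both comparisons (-0.28 and -0.38 for Btg2, -0.56 and -0.77 for Socs3). Over all cells, Fos was at 10.3, 541 and 206 CPM and Jun at 64.3, 532 and 474 CPM. Fos and Jun thus stood above the first run in both other runs, whereas Hspa1a did so in the second only.

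Markers of other cell types were set beside these levels. The summed level of 8 erythroid genes was 0.915, 184 and 45.2 CPM over all cells in run order, with 4, 1 and 1 of the 8 at 0. In the resting gates it reached 4.93 CPM in the first run, 8.58 to 214 CPM in the second and 2.42 to 515 CPM in the third, mostly from Hbb-bt in DN2a-like cells (204 and 510 CPM for the second and the third run). The other beta-globin gene Hbb-bs stood at 4.97 to 7.15 CPM in the resting gates of the second run. B cell, myeloid and stromal lists of 5 genes each summed to 12.2 to 75.0, 1.84 to 50.5 and 3.68 to 107 CPM there, with 0 genes at 0 in each over all cells. Their part in the Hspa1a level was not tested.

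Single cells showed how the HSP70 message of the second run was distributed. Each cell was thinned to 2000 UMIs, which left out 48 cells of the third run. Hspa1a was then found in 4.82% (Clopper-Pearson 4.27 to 5.42) of first-run cells, 34.9% (33.9 to 35.9) of second-run cells and 0.831% (0.638 to 1.06) of cells of the third run, and without thinning in 10.4%, 47.0% and 2.53%. In the second run the share lay between 32.6% of DN3-like and 37.9% of DN2a-like cells, leaving aside 32 DN4-like cells at 15.6%. DN1-like progenitors were at 34.2%, DN1-like Il7r cells at 33.7%, the Trdc gate at 35.0% and the NK-receptor gate at 35.2%. No cell type here is known to lack the gene, so RNA free in the droplets could not be measured with it.

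The UMIs sat in few cells. In the second run the mean was 1.36 Hspa1a UMIs per thinned cell, at which even (Poisson) sampling would place a UMI in 74.4% of the cells, against the 34.9% found. The variance was 7.13 times the mean, the tenth of the cells with most Hspa1a held 66.4% of its UMIs, 16.2% of the cells held at least 3, and the highest cell held 36. For Hspa8 in the same cells the variance was 1.42 times the mean, and 96.2% of the cells held a UMI against 97.7% under even sampling. Dnajb1 stood between them, with a variance of 2.12 times the mean in the second run and 1.06 in each of the other 2.

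**Figure D3:**
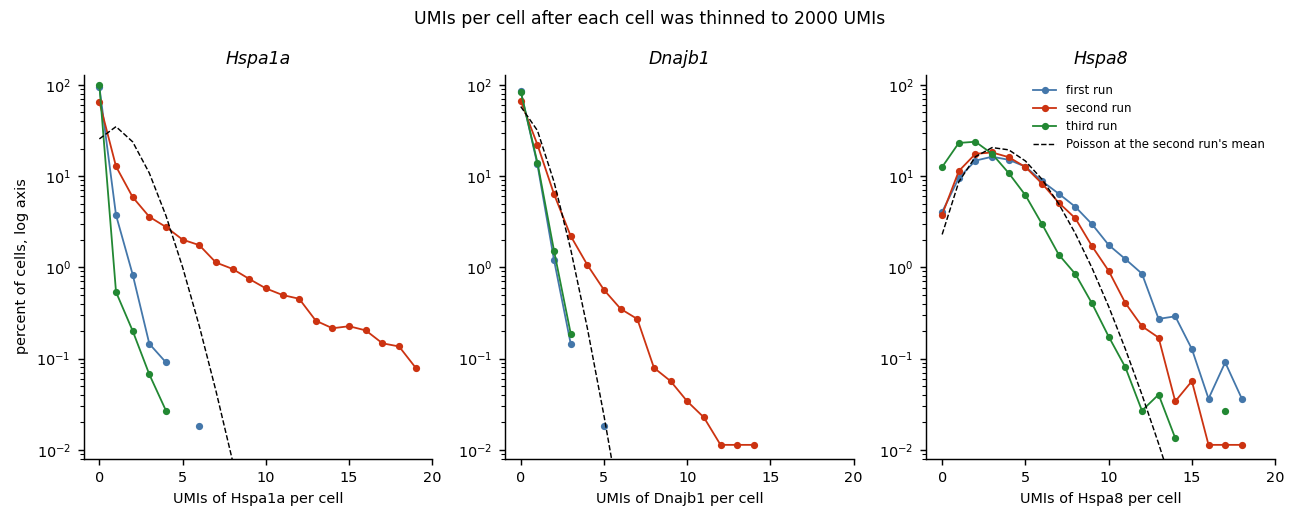
The share of cells (percent, log axis) is plotted against UMIs per cell after thinning to 2000 UMIs, with a line per run and a dashed Poisson curve at the second run's mean. Hspa1a in the second run has a long tail that reaches 36 UMIs in 1 cell (the axis ends at 20) and more cells at 0 than the dashed curve, while Hspa8 follows its curve closely.

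Resting cells of the second run with at least 3 Hspa1a UMIs also held more UMIs of other members. In the NK-receptor gate, 411 such cells held a mean of 1.82 Dnajb1 UMIs per thinned cell, against 0.697 in 1382 cells with no Hspa1a. The mean of Hspa1b was 0.455 against 0.0644, and that of Hspa8 4.404 against 3.388. Median depth was 2763 against 2751 UMIs and the median mitochondrial share 3.08% against 3.19%. In DN3-like cells the 78 Hspa1a-rich cells held 0.603 Dnajb1 UMIs against 0.201 in 333 cells with none, and 0.256 Hspa1b UMIs against 0.0300.

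Fos and Jun were also higher in the Hspa1a-rich cells. Between these 2 classes of DN3-like cells the mean of Fos was 0.715 and 1.92 UMIs and that of Jun 0.823 and 2.51 UMIs, with no test, since the cells come from 1 library. Resting second-run cells in the gates were also cut into 3 equal groups. Hspa1a was at 848 CPM where the mitochondrial share was lowest and at 670 CPM where it was highest, and at 922 CPM where UMIs were fewest and 605 CPM where they were most. These splits pool the gates, and the NK-receptor gate, with 2138 resting cells, had both few UMIs per cell and the highest Hspa1a level, 853 CPM. Cut within each of the 7 gates, Hspa1a was higher where UMIs were fewest than where they were most in 6, the exception being DN1-like progenitors (485 against 687 CPM). It was higher where the mitochondrial share was lowest in 6, the exception being DN2b-like cells (672 against 808 CPM). In cells with no Hspa1a UMI, Dnajb1 was at 0.201 UMIs in the second run and 0.0909 in the first (DN3-like).

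Stages were then compared across runs with edgeR's quasi-likelihood test on counts summed per run, gate and cycle state, with run as a term. The 35 sums left 17 residual degrees of freedom. The p-values measure the spread among sums of 3 pooled libraries, not among mice. Between DN2a-like and DN2b-like resting cells, 0 of the 8 members were called (log2 differences of -0.50 to -0.065), beside 1.95% of 11864 genes tested. Between DN2b-like and DN3-like resting cells 0 were called (-0.43 to 0.16), beside 0.236% of the genes. In both, 0 members had an unadjusted p under 0.05, beside 1452 and 768 of the 11864 genes. The DESeq2 Wald test called 0 in both, beside 1.19% and 0.219% of the genes. At such shares, 0 of 8 says little about the members. In data simulated for the step to DN3-like cells, the fit called 56 of 98 genes changed by a log2 of 1. It called 23 of 98 changed by 0.5, so changes of the size seen here could be missed. The changed genes were drawn at random from all genes tested, so these counts do not give the recovery of any 1 member. The step to DN2b-like cells was not simulated. Of the proteostasis list 53 genes were tested. From DN2a-like to DN2b-like cells Fkbp5, an HSP90 co-chaperone, rose (log2 0.67, SE 0.18, edgeR adjusted p = 0.0377) and Calr, a lectin chaperone of the endoplasmic reticulum, fell (-0.46, SE 0.10, 0.00953). From DN2b-like to DN3-like cells Dnajc7 rose (0.51, SE 0.11, 0.0373).

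The earliest step could be read in the second run only. Between 96 resting DN1-like progenitors and 772 resting DN2a-like cells, Hspa1a went from 554 to 673 CPM, a ratio of 1.21 (1.08 to 1.38). This interval covers counting error only and is too narrow for the spread between cells. The variance of Hspa1a over thinned cells was 7.93 times its mean in the progenitors and 6.21 times in the DN2a-like cells. The ratio of Dnajb1 was 0.997 (0.833 to 1.20), that of Hspa8 1.0455 (0.977 to 1.12) and that of Hsp90ab1 0.989 (0.927 to 1.06). With gates on thinned cells, the log2 ratio was -0.34 (-0.54 to -0.14) for Dnajb1 and -0.145 (-0.215 to -0.076) for Hsp90ab1. For Hspa8 it was -0.015 (-0.089 to 0.060). With a mitochondrial limit of 5% or with doublets removed, the intervals of these members held 0. The latest step was read in the first run only, in cycling cells. From 583 DN3-like to 864 DN4-like cells Hspa1a went from 20.01 to 12.5 CPM, a ratio of 0.623 (0.479 to 0.809), while Hspa8 went from 2417 to 2578 CPM, a ratio of 1.07 (1.045 to 1.09). With gates on thinned cells, the log2 ratio was -0.39 (-1.27 to 0.60) for Hspa1a and 0.055 (-0.023 to 0.134) for Hspa8. With doublets removed, the values were -0.64 (-1.09 to -0.19) and 0.032 (-0.0022 to 0.066). With a mitochondrial limit of 5%, neither interval held 0. With 1 library on each side, neither step has a test.

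Of the 8 members, Dnajb1 alone was called between the Trdc gate and DN3-like cells, in the fit over all 3 runs, beside 25.1% of the genes called. The second run was sorted against TCRγδ, so its Trdc gate does not come from the same sort as that of the other 2. In resting cells of the Trdc gate it was at 131, 281 and 118 CPM in the 3 runs, against 57.3, 153 and 55.9 CPM in DN3-like cells, higher in the Trdc gate in each run. The log2 difference was 1.04 (SE 0.21, edgeR adjusted p = 0.000316). The other 7 members did not pass. Hsp90aa1 had a log2 difference of -0.32 (SE 0.14, edgeR adjusted p = 0.107) and Hspa1a of 0.075 (SE 0.38, 0.930). Hsp90aa1 was called lower with no filter on low counts and without the second run, and Hsp90ab1 without the first. Without a run term the adjusted p of Dnajb1 was 0.578.

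Dnajb1 was also higher in the NK-receptor gate than in DN1-like Il7r cells, which 2 runs allowed to compare. Dnajb1 was at 458 and 95.9 CPM in the NK-receptor gate and at 202 and 58.2 CPM in the DN1-like Il7r cells of the second and the third run. The log2 difference was 1.08 (SE 0.25, edgeR adjusted p = 0.00241), beside 11.8% of the genes called. Hsph1 stood at 0.71 (SE 0.28, 0.101) and Hspa8 at 0.29 (SE 0.14, 0.210), and neither passed. Without a run term the adjusted p of Dnajb1 was 0.859. In resting second-run cells, pooled over gates, Dnajb1 was at 491 CPM where UMIs were fewest and 245 CPM where they were most. In the third run it was at 96.6 and 85.0 CPM. The part of depth was not tested.

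Of the proteostasis list, 8 of 53 were higher and 3 lower in the Trdc gate than in DN3-like cells, a share close to that of all genes, of which 14.8% were higher and 10.3% lower (median log2 -0.051, 0.0087 over all genes). Hspbap1 (1.33, SE 0.44, edgeR adjusted p = 0.0254), Dnajc3 (1.10, SE 0.11, 4.21e-09) and Hspa5 (0.95, SE 0.13, 7.76e-07) rose most. Dnajc3 and Hspa5 are chaperones of the endoplasmic reticulum. Fkbp5 (-1.69, SE 0.18, 6.41e-09), Dnajc7 (-1.49, SE 0.11, 1.11e-11) and Bag2 (-0.82, SE 0.21, 0.00377) fell most. In the NK-receptor gate 0 rose and 2, Sugt1 (-0.65, SE 0.14, 0.000886) and Dnajc3 (-0.48, SE 0.13, 0.00958), fell (median 0.090, 0.085 over all genes). Of the immediate early genes 10 of 18 were higher in the Trdc gate and 6 of 18 in the NK-receptor gate, with 1 and 2 lower. Of all genes, 6.37% were higher and 5.39% lower in the NK-receptor gate.

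Cycling cells carried more of the housekeeping and HSP90 members, in all 3 runs. In DN3-like cells Hsp90aa1 went from 469 to 1249 CPM in the first run, from 608 to 1198 CPM in the second and from 631 to 1717 CPM in the third, and resting and cycling values did not overlap. Its log2 difference was 1.43 (SE 0.14, edgeR adjusted p = 8.22e-10). Hsp90ab1 went from 1521 to 2471, from 1768 to 2367 and from 2846 to 4991 CPM (log2 0.79, SE 0.11, 8.20e-07), and Hspa8 from 1636 to 2417, from 1955 to 2260 and from 1054 to 1861 CPM (0.67, SE 0.12, 1.54e-05). In resting cells, pooled over gates, these members were also higher in the third of cells with most UMIs than in that with fewest, in each run. In the second run Hsp90aa1 was at 358 CPM with fewest and 651 with most, Hsp90ab1 at 1077 and 1877 and Hspa8 at 1741 and 1893. Cycle states rest on unthinned UMIs. With gates and states set on thinned cells, 3 of 7 members were called higher in DN3-like cells. Of all genes, 13% were called higher under that setting and 25.3% in either direction. The part of depth was not tested.

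Hsph1, the HSP110 member, was also higher in cycling DN3-like cells, going from 17.2 to 44.4, from 15.5 to 24.4 and from 24.9 to 55.6 CPM (log2 1.23, SE 0.21, edgeR adjusted p = 1.44e-05). With gates set on thinned cells its value was 0.36 and the adjusted p 0.390. Thus 4 of 8 members were called higher and 0 lower, beside 44.9% of all genes called in either direction and 22.0% called higher. Without a run term the adjusted p was 0.214 for Hsp90ab1 and 0.228 for Hspa8.

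The cycle difference of Hsp90aa1 was 1.07 (log2, SE 0.15, edgeR adjusted p = 7.36e-07) in DN2b-like cells and 0.73 (SE 0.14, 0.000232) in DN2a-like cells. In DN2b-like cells 4 members passed (26.7% of genes called, 14.9% higher). Beside Hsp90aa1 these were Hspa8 at 0.60 (SE 0.12, 0.000196), Hsp90ab1 at 0.54 (SE 0.11, 0.000525) and Hsph1 at 0.79 (SE 0.27, 0.0308). The Hsph1 call was lost without the first run (adjusted p = 0.0569), without the third (0.546) and with the DESeq2 Wald test (0.0668). In DN2a-like cells (22.3% of genes called, 12.7% higher) Hsp90aa1 and Hspa8 passed, the latter at 0.49 (SE 0.12, 0.00226), which became 0.0814 without the third run and 0.0598 with gates on thinned cells. Hsp90ab1 there had 0.29 (SE 0.11, 0.0581). Whether the cycle difference itself grew between stages was not tested.

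**Figure D4:**
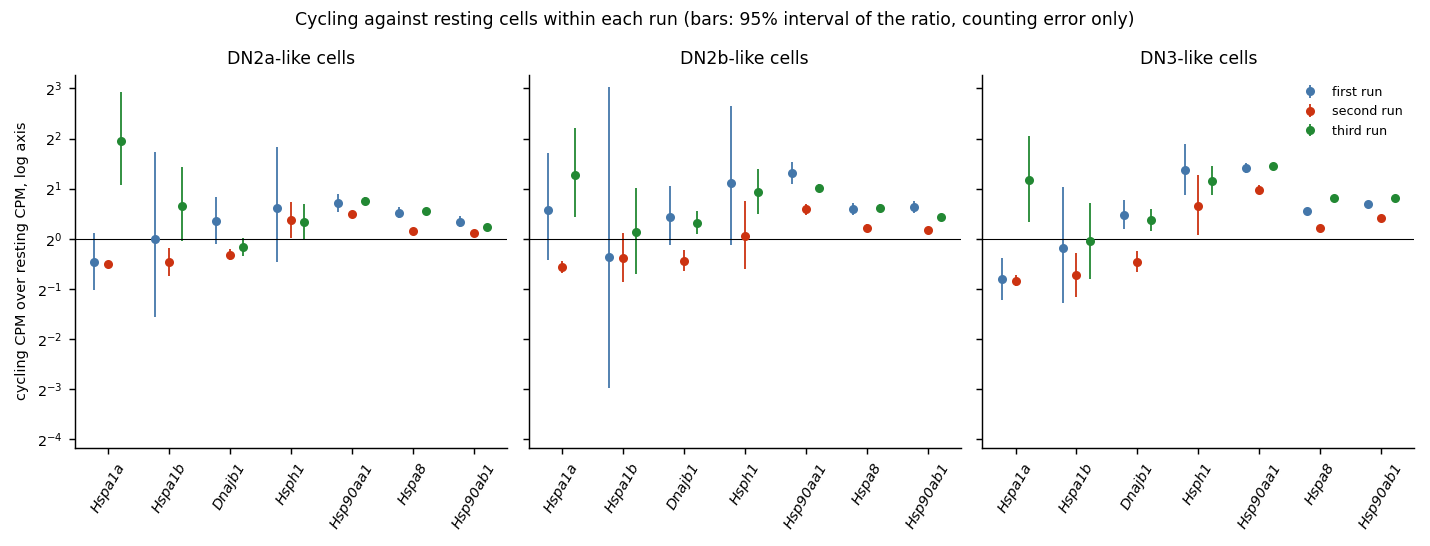
For each of 7 members the ratio of CPM in cycling over resting cells (log axis) is plotted within each run, with its 95% interval for counting error, in DN2a-like, DN2b-like and DN3-like cells. Hsp90aa1 lies above 1 in all 9 points, from 1.42 to 2.72, whereas Hspa1a lies below 1 in the second run and above 1 in the third.

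The share of HSP90 transcripts that came from the inducible gene shifted with the cycle. Over all resting cells Hsp90aa1 gave 23.5%, 25.05% and 17.1% of the summed Hsp90aa1 and Hsp90ab1 UMIs in the 3 runs, and over all cycling cells 33.6%, 32.9% and 24.8%. Each UMI marks the 3′ end of 1 transcript, so these shares were not divided by length.

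The stress-inducible pair did not share the cycle difference. Hspa1a had log2 differences of 0.14 (SE 0.41, edgeR adjusted p = 0.860), 0.027 (SE 0.41, 0.980) and -0.45 (SE 0.37, 0.345) in DN2a-like, DN2b-like and DN3-like cells. Behind these values stood runs that went opposite ways. In DN3-like cells Hspa1a went from 34.9 to 20.01 CPM and from 640 to 359 CPM in the first 2 runs, but from 3.27 to 7.37 CPM in the third. Without the third run its log2 difference was -0.72 (adjusted p = 0.0263). Hspa1b, Hspb1 and Dnajb1 did not pass in any of the 3 gates either. Dnajb1 was lower in cycling DN3-like cells of the second run (153 to 112 CPM) and higher in those of the first (57.3 to 79.7 CPM) and the third (55.9 to 72.4 CPM), and without the second run its value was 0.56 (adjusted p = 0.00264).

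Most of the proteostasis list changed with the cycle in DN3-like cells, where 34 of 53 were higher and 6 lower in cycling cells. Of all genes, 22% were higher and 22.9% lower. The median log2 difference of the list was 0.57, beside -0.076 over all genes. Hspd1, the mitochondrial chaperonin HSP60, rose by 1.53 (SE 0.18, edgeR adjusted p = 1.56e-08), Hspb6 by 1.39 (SE 0.42, 0.00671) and Ptges3, the HSP90 co-chaperone p23, by 1.38 (SE 0.14, 7.10e-10). Dnajc7 (-1.16, SE 0.11, 1.74e-10), Dnajb2 (-1.06, SE 0.20, 4.60e-05) and Dnajb9 (-0.86, SE 0.19, 0.000427) fell most. In DN2b-like cells 25 rose and 3 fell, beside 14.9% and 11.9% of all genes. In DN2a-like cells 12 rose and 2 fell, beside 12.7% and 9.63%. There the list's share in either direction was close to that of all genes, 22.3%. In DN2b-like cells Ptges3 (1.16), Hspd1 (1.08) and Fkbp4 (0.97) led, and Unc45a (-0.75), Dnajb2 (-0.68) and Dnajc7 (-0.63) fell. In DN2a-like cells Hspb6 (1.41), Ptges3 (0.81) and Stub1 (0.69) led, and Dnajb2 (-0.63) and Dnajc7 (-0.46) fell. The immediate early genes went the other way in DN3-like cells, with 10 of 18 lower, beside 22.9% of all genes. Socs3 led (-1.93, SE 0.29, 1.95e-06), and 1, the polyubiquitin gene Ubb (0.33, SE 0.08, 0.000977), was higher. In DN2a-like cells 12 of 18 were lower (9.63% of all genes), and in DN2b-like cells 3 of 18 (11.9%).

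The patterns of the members over the 35 sums fell apart in the same way. Among 5713 other genes with a mean of at least 20 CPM, the 5 most like Hsp90aa1 (Pearson r of log2(CPM + 1)) were Fabp5, Snrpd1, Ptges3, Nap1l1 and Anp32b, at 0.943 to 0.964, and at 0.958 to 0.971 after each run was centred. The 5 most like Hspa8 were Lsm5, Rbm3, Eloc, Get4 and Hprt (0.932 to 0.947), those most like Hsp90ab1 were Sod1, Cdk2ap1, Sfpq, Hist1h2ae and Mybbp1a (0.925 to 0.942), and those most like Hsph1 were Rbm28, Ddx21, Hspa4, Slc7a1 and Hnrnpu (0.751 to 0.810). Hspa4 is itself an HSP110-type chaperone.

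For the stress-inducible members the most similar genes included those that set the second run apart. For Hspa1a and Hspa1b summed they were Eif2s3y and Ddx3y (both 0.910), Tmed7 (0.854), B2m (0.851) and Rpl39 (0.841). After each run was centred, Eif2s3y, Ddx3y and Rpl39 were at 0.151, 0.151 and -0.127, B2m at 0.375 and Tmed7 at 0.730. Hspb1 was most like Ddx3y, Eif2s3y, Rpl39, Tmed7 and Serinc3 (0.831 to 0.951), and Dnajb1 most like Tmed7, Ddx3y, Eif2s3y, Serinc3 and Gnas (0.766 to 0.838). With each run centred, these genes were at 0.0878 to 0.353 for Hspb1 and at 0.210 to 0.518 for Dnajb1. Between members, centred by run, Hsp90aa1 and Hsp90ab1 were at 0.966, Hsp90aa1 and Hspa8 at 0.834, the summed HSP70 pair and Dnajb1 at 0.612, and the pair and Hspa8 at -0.067. These correlations are descriptions over sums that share libraries, depth and cells.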

How the data were processed

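The authors deposited raw UMI counts per gene and cell from 10x Genomics 3′ libraries, mapped to mm10 with Cell Ranger, per the labels. The kit of each run is not given in the sources used here. The submitters' processing notes also name R 3.6.3 and Seurat 2.3.

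Filtered cells were gated and summed per run, gate and cycle state (at least 30 cells), giving counts and CPM of all UMIs of the class. No doublets were removed, and their removal by Scrublet score (scanpy 1.11.5) was an alternative. Sums were tested with edgeR 4.0.16 (R 4.3.3; TMM, filterByExpr, class and run as terms, two-sided, Benjamini-Hochberg over all genes tested, threshold 0.05), with DESeq2 1.42.0 as an alternative. The fit was tested on simulated data. Folds between runs use genes with a mean of at least 20 CPM. Intervals are exact Poisson, conditional binomial (ratios) or Clopper-Pearson at 95%, and cover counting error only. The libraries held 39947415, 52797915 and 98533329 UMIs.

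Named genes were all 8 members, the 3 largest called changes of the proteostasis list in each direction, and the 5 genes most like each member. Immediate early genes and globins were named after their values were seen. Members, gates and lists were chosen with earlier results of these data known.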

Additional observations from a re-analysis of the deposited data

Results flagged for a closer look

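In some gates Hspa1a and Hspa1b went opposite ways between resting and cycling cells in different runs, with intervals (counting error only) on opposite sides of 1. The difference between runs was not tested, since each run is 1 library. For Hspa1a in DN3-like cells the ratio of cycling over resting CPM was 0.573 (0.428 to 0.771) in the first run, 0.561 (0.520 to 0.606) in the second and 2.25 (1.27 to 4.12) in the third. In DN2a-like cells it was 0.701 (0.668 to 0.737) in the second run and 3.85 (2.12 to 7.67) in the third, and in DN2b-like cells 0.676 and 2.42. In the Trdc gate it was 0.606, 0.717 and 20.6 (5.42 to 174), the last from only 2 UMIs in resting cells. For Hspa1b in the Trdc gate the ratios were 0.267, 0.652 and 2.56. In the NK-receptor gate both genes were lower in cycling cells of the second and of the third run. Hspa1a was there at 0.407 (0.366 to 0.452) and 0.230 (0.046 to 0.715), and Hspa1b at 0.440 and 0.284. Cycling cells of the third run held only 9 UMIs of the pair in that gate.

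Dnajb1 did likewise in 2 gates. In DN3-like cells its ratio was 1.39 (1.14 to 1.71) in the first run, 0.729 (0.629 to 0.846) in the second and 1.30 (1.11 to 1.51) in the third. In DN2b-like cells it was 0.738 in the second run and 1.25 in the third.

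Cells that the filters left out of the third run also held 7 of the 8 members above the level of 3 counts, while Hspb1 had 0 UMIs in those over the mitochondrial limit and 1 in those over the gene limit. In 762 cells over 7% mitochondrial counts, CPM of non-mitochondrial UMIs was 8.06 for Hspa1a, 16.1 for Hspa1b, 59.6 for Dnajb1, 66.1 for Hsph1, 889 for Hsp90aa1, 965 for Hspa8 and 2951 for Hsp90ab1. In 552 cells over 5000 genes it was 10.4 for Hspa1a, 8.51 for Hspa1b, 87.1 for Dnajb1, 65.6 for Hsph1, 1672 for Hsp90aa1, 1821 for Hspa8 and 4921 for Hsp90ab1. On the same scale the cells kept from this run were at 7.06 for Hspa1a, 7.06 for Hspa1b, 91.8 for Dnajb1, 39.6 for Hsph1, 940 for Hsp90aa1, 1366 for Hspa8 and 3409 for Hsp90ab1. Against the cells kept, Dnajb1, Hspa8 and Hsp90ab1 were lower, and Hspa1b and Hsph1 higher, in the cells over the mitochondrial limit, by more than counting error, while the intervals of Hspa1a and Hsp90aa1 held the level of the cells kept.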

How the results depend on the processing

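The Hspa1a ratio of 18.3-fold between the second and first run (DN3-like) stayed within 16.5-fold and 19.0-fold under TMM scaling, gates on thinned cells, a mitochondrial limit of 5% and removal of doublets. Its share of second-run cells became 26.0% after thinning to 1000 UMIs. No paired analysis was possible because each sort was sequenced once, so that no group has replicates to pair. Cell classes were compared within runs through the run term. For the steps from DN1-like progenitors and to DN4-like cells, seen in 1 run each, the alternatives that need a fit or leave out a run could not be run, and with at least 100 cells per class no DN1-like progenitor class remained.

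Counts of called genes moved under several settings, and the cause was not tested. For DN2b-like minus DN2a-like the 231 genes became 141 with the DESeq2 Wald test, 464 with no filter on low counts, 4 with no run term, 120 with gates on thinned cells, and 4 (without the third run) to 252 (without the first) with 1 run left out. For DN3-like minus DN2b-like the 28 became 154 with no filter, 0 with no run term, 7 with gates on thinned cells, 4 with doublets removed, and 4 (without the third run) to 26 with a run left out. For the Trdc gate minus DN3-like the 2976 became 652 with no run term and 1070 (without the third) to 2930 with a run left out. For the NK-receptor gate minus DN1-like Il7r the 1395 became 170 with no run term and 563 (without the second) to 1468. For cycling minus resting, the 2650 of DN2a-like cells became 492 with no run term, 1149 with gates on thinned cells and 1246 (without the third run) to 2555. The 3173 of DN2b-like cells became 740 with no run term and 1456 (without the third) to 2628, and the 5327 of DN3-like cells 1410 with no run term, 2608 with gates on thinned cells and 3499 (without the third) to 4616.

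With no run term the calls of Hsp90aa1 (adjusted p = 0.0606) and Hspa8 (0.676) in cycling DN2a-like cells and of Hspa8 (0.379), Hsp90ab1 (0.584) and Hsph1 (0.292) in DN2b-like cells were lost. With no filter on low counts, calls were gained for Dnajb1 in DN2b-like minus DN2a-like (log2 -0.45, adjusted p = 0.0458), Hsp90aa1 in the Trdc gate (-0.34, 0.00894), Hsph1 (0.76, 0.00844) and Hspa8 (0.34, 0.0343) in the NK-receptor gate, Hsp90ab1 in cycling DN2a-like cells (0.29, 0.0121) and Hspa1a in cycling DN3-like cells (-0.45, 0.0174). Without the second run Hsp90aa1 was called in the Trdc gate (-0.46, 0.0192) and Dnajb1 in cycling DN2b-like cells (0.45, 0.0432), and without the first Hsp90ab1 in the Trdc gate (-0.30, 0.0334).

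Of 594 member values under alternatives, 53 changed sign, 0 of them past the threshold. In DN2b-like minus DN2a-like, Hspa1a was at 0.12 (gates on thinned cells) and 0.029 (without the first run). In DN3-like minus DN2b-like, Hspa1a was at 0.0014 (DESeq2) and 0.26 (without the second run), and Hspa1b at -0.0056 (DESeq2), -0.045 (without the second) and -0.027 (mitochondrial limit 5%). Hsp90aa1 there was at 0.051 (without the second), 0.12 (thinned), 0.0014 (5%) and 0.0034 (doublets removed), Hsp90ab1 at 0.0057 (no filter), 0.035 (without the second), 0.065 (thinned), 0.0053 (5%), 0.0063 (doublets removed) and 0.0081 (at least 100 cells), and Hsph1 at -0.19 (without the third). In the Trdc gate minus DN3-like, Hspa1a was at -0.19 (DESeq2) and -0.61 (without the second), Hsph1 at -0.24 (without the second), Hspa1b at 0.24 (no run term) and 0.35 (without the third) and Hspa8 at -0.089 (without the first). In the NK-receptor gate, Hspa1b was at -0.0018 (no run term) and -0.12 (without the third), and Hsp90ab1 at -0.044 (DESeq2 size factors), -0.044 (DESeq2), -0.024 (without the first), -0.050 (without the second), -0.081 (thinned), -0.013 (5%) and -0.026 (at least 100 cells).

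For cycling minus resting in DN2a-like cells, Hspa1a was at -0.40 (no run term), -0.39 (without the third) and -0.0056 (thinned), Hspa1b at -0.17 (no run term), -0.029 (without the first), -0.32 (without the third) and -0.12 (thinned), Hspb1 at 0.039 (doublets removed), Dnajb1 at 0.079 (without the second) and 0.00097 (thinned) and Hsph1 at -0.0062 (thinned). In DN2b-like cells Hspa1a was at -0.033 (DESeq2 size factors), -0.40 (no run term), -0.037 (without the first), -0.31 (without the third) and -0.13 (doublets removed), Hspa1b at 0.12 (without the second) and 0.18 (doublets removed) and Dnajb1 at -0.067 (without the third). In DN3-like cells Hspa1b was at 0.017 (without the second). The log2 ratio of Hsp90aa1 from cycling DN3-like to DN4-like cells, 0.065, became 0.26 with gates on thinned cells and -0.0077 with doublets removed. From resting DN1-like progenitors to DN2a-like cells it was -0.00043. That value became -0.14 (-0.25 to -0.024) with gates on thinned cells, 0.0069 with the 5% limit and 0.016 with doublets removed.

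With 1 run left out in turn, the other ends of these values were as follows. In DN2b-like minus DN2a-like, Hspa1a reached -1.05 without the second run. In DN3-like minus DN2b-like, without the first run, Hspa1a was at -0.18, Hspa1b at 0.049, Hsp90aa1 at -0.073 and Hsp90ab1 at -0.062, and Hsph1 was at 0.39 without the second. In the Trdc gate, Hspa1a was at 0.20, Hsph1 at 0.42 and Hspa8 at 0.13 without the third run, and Hspa1b at -0.69 without the second. In the NK-receptor gate, Hspa1b was at 2.05 without the second run and Hsp90ab1 at 0.038 without the third. For cycling minus resting, without the second run, Hspa1a was at 0.52 and Hspa1b at 0.58 in DN2a-like cells and Hspa1a at 1.07 in DN2b-like cells. Dnajb1 was at -0.15 in DN2a-like cells without the first run, and Hspa1b at -0.49 in DN3-like cells without the third.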

Other observations

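Resting cells of the third run that fell in no gate held Hspb1 at 8.91 CPM, beside 0 to 0.508 CPM in the 6 gates of that run.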
